A study of Homo sapiens with 6 samples.

Results

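The unfolded protein response and the targets of its transcription factor ATF4 were examined as a set of 42 genes, listed by function. Every probe set whose platform symbol was 1 of these genes and no other was taken, which gave 64 of 22215 probe sets and 39 of the 42 genes, of 11963 genes that had their own probe sets. DNAJB11, SYVN1 and SESN2 had none, and 3 further probe sets carried HSP90B1 or PHGDH together with other symbols. RNA came from the triple negative breast cancer line SUM-159, stably transfected with SH3GL2 in the pcDNA 3.1 vector or with the empty vector, and was hybridised to Affymetrix U133A 2.0 arrays, 3 for each group. SH3GL2, also called endophilin A1, is an adaptor protein of endocytosis, and the series was made to find genes associated with its function. Both groups carry the vector and differ in the insert. The study's methods describe stable clones kept under G418 and RNA taken in triplicate. Neither they nor the labels say whether a group is 1 clone or a pool, or whether the triplicates are separate cultures, so the p-values measure the spread between these arrays, which may be technical.

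When unfolded proteins build up in the endoplasmic reticulum (ER), 3 membrane sensors respond. IRE1, encoded by ERN1, splices the mRNA of XBP1, ATF6 is cut to release a transcription factor, and PERK, encoded by EIF2AK3, phosphorylates the initiation factor eIF2 alpha. XBP1 and ATF6 raise genes for ER chaperones, folding enzymes and ER-associated degradation, called the ER arm here. Phosphorylated eIF2 alpha slows general translation but favours translation of ATF4, which raises genes of amino acid supply and stress effectors, called the ATF4 arm here. Other eIF2 alpha kinases, such as the amino acid sensor GCN2, also lead to ATF4, so the arms can move apart. A log2 signal measures mRNA only, so splicing of XBP1, cleavage of ATF6 and translation of ATF4 are outside these values.

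Array medians of the log2 signal lay between 6.97 and 7.02, and no 2 arrays held the same values (Pearson r across probe sets 0.99712 to 0.99822 within groups and 0.99471 to 0.99654 between them). Probe sets of 57 genes of other organs served as a reference for dim signal, with a 95th percentile of 7.02, and 58 of the 64 member probe sets had a mean over the 6 arrays above it. The probe set of SH3GL2 itself read 3.15, 3.33 and 3.29 on the SH3GL2 arrays and 3.24, 3.18 and 3.25 on the empty vector arrays, below the reference median of 5.195, so it gives no check of the labels. All 5 mesenchymal markers measured (VIM, CD44, FN1, SPARC and AXL) lay above the reference percentile, as did KRT8 and KRT18 among 7 epithelial markers, ERBB2 and GATA3 among 5 hormone receptor and luminal markers, and none of 4 leukocyte and 5 endothelial markers, with PTPRC and CDH5 among those below it. Of 19 mesenchymal probe sets, 7 (of FN1, SPARC and AXL) were lower and none higher in SH3GL2 cells (limma, adjusted p under 0.05), and their part in the results below was not tested. Bulk RNA cannot tell fewer cells of a type from less RNA per cell.

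Member probe sets passed the test between SH3GL2 and empty vector cells at a share near that of all probe sets. Of the 64 probe sets 0 were higher and 2 were lower in SH3GL2 cells at an adjusted p under 0.05 (limma, Benjamini-Hochberg over all probe sets), namely PDIA4 in the ER arm and the transcription factor CREB3L2. Among all 22215 probe sets 4.17% passed by the same rule, 1.99% higher and 2.18% lower. At an unadjusted p under 0.05 the count was 8 of the 64 members, against 15.9% of all probe sets. The groups did not overlap at 1 member probe set that was higher in SH3GL2 cells (ALDH18A1) and at 11 that were lower, against 10.5% and 8.97% of all probe sets. The median log2 fold change, SH3GL2 minus empty vector, was -0.06 over the members and 0.01 over all probe sets. With 1 probe set per gene, that of the highest mean, the 95% interval of every one of the 39 genes stayed inside a 1.5-fold change either way, the widest bounds being -0.54 for PDIA4 and 0.34 for TRIB3. In simulated data with these arrays' spread, limma recovered 4 of 50 changes of 1.2-fold, 36 of 50 of 1.5-fold and 46 of 50 of 2-fold. Changes of 1.5-fold or less, and a few of 2-fold, could thus be missed. The simulated spread was drawn separately for each array and the changed probe sets were picked from all probe sets. Recovery among the members was therefore not measured.

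**Figure D1:**
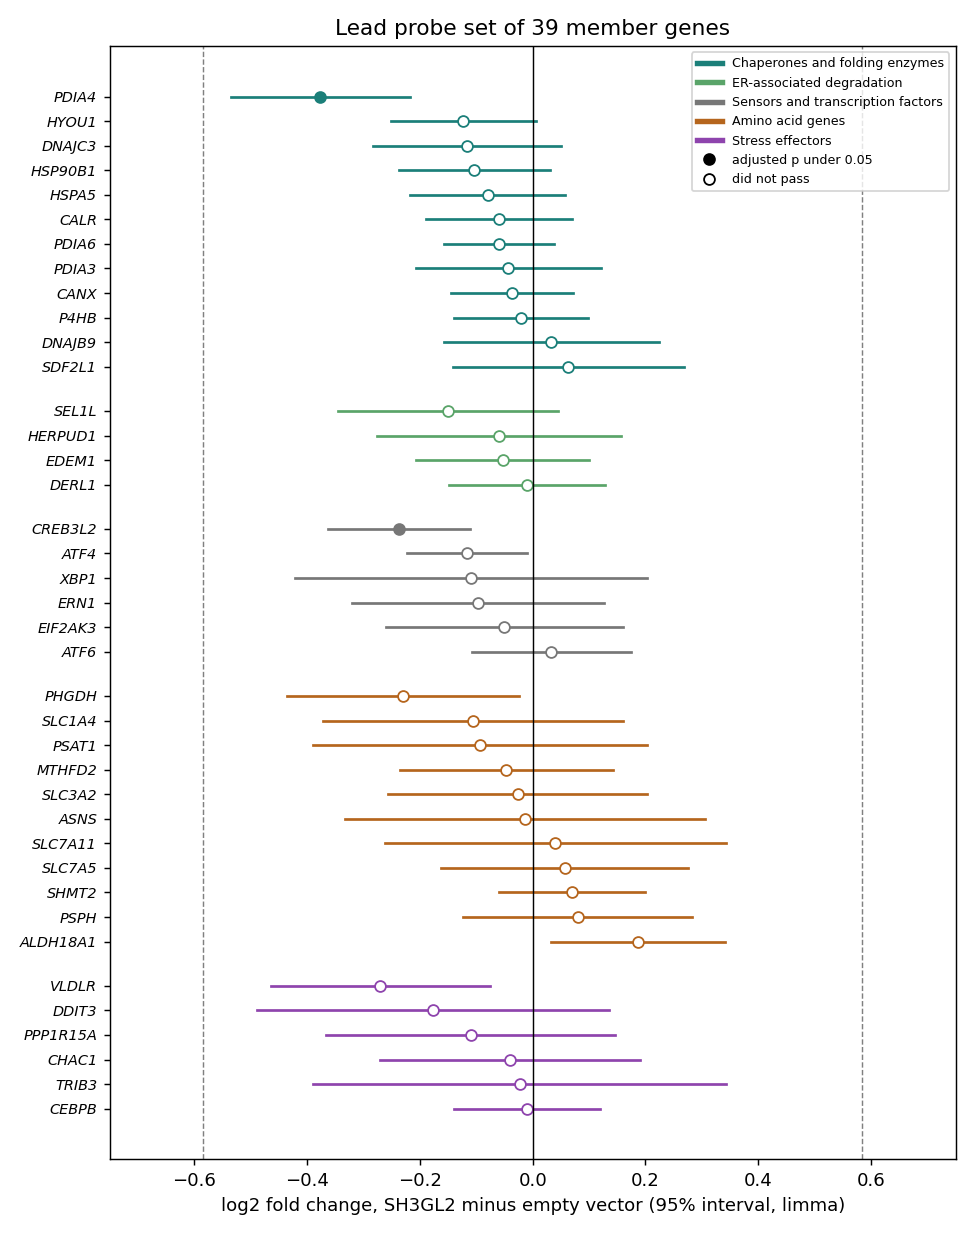
Log2 fold change (horizontal axis, SH3GL2 minus empty vector) of the brightest probe set of each of 39 genes, grouped by role and ordered by value within a role. Points are limma estimates over 3 arrays per group, bars their 95% intervals, dashed lines a 1.5-fold change either way, and the filled points are PDIA4 and CREB3L2, the genes with an adjusted p under 0.05.

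In the ER arm 1 of 31 probe sets was lower and 0 were higher (limma, adjusted p under 0.05), while 27 lay below 0, or 87.1%, against 46.1% of all probe sets. The median was -0.07 as deposited and -0.08 after centring arrays on their medians, with 27 below 0 in both. After centring, 50.6% of all probe sets lay below 0. The wider ER list described below did not lean this way, with 34 of 75 probe sets below 0 (45.3%) and a median of 0.0067. Most of the ER arm values were small, and 30 of the 31 did not pass the test. The probe set that passed belongs to PDIA4 (ERp72), a disulfide isomerase of the ER lumen. Its log2 signal was 10.28, 10.56 and 10.50 on the SH3GL2 arrays, against 10.76, 10.85 and 10.86 on the empty vector arrays. All SH3GL2 arrays lay below all empty vector arrays, and PDIA4 fell by 0.38 on the log2 scale (SE 0.07, n = 3 per group; limma, adjusted p = 0.0102). Leaving out empty vector replicate 2 (adjusted p = 0.0557) or replicate 3 (adjusted p = 0.0505) ended the call. A second PDIA4 probe set read 8.80, 9.11 and 9.02 on the SH3GL2 arrays and 9.24, 9.16 and 9.02 on the empty vector arrays, and did not pass (log2 fold change -0.16, limma, adjusted p = 0.425). Its groups overlapped, so the probe sets of PDIA4 differ in their call.

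HSPA5 encodes BiP, the Hsp70 chaperone that holds the sensors inactive and the usual readout of ER stress. It read 11.86, 12.08 and 11.97 on the SH3GL2 arrays, against 12.04, 11.97 and 12.14 on the empty vector arrays. The groups overlapped, and the difference of -0.08 (95% interval -0.22 to 0.06) did not pass (limma, adjusted p = 0.629). HSP90B1 (GRP94), the ER member of the Hsp90 family, had probe sets at -0.10 and -0.26, and the second read 8.65, 8.52 and 8.35 in SH3GL2 cells and 8.75, 8.77 and 8.79 in empty vector cells (limma, adjusted p = 0.113). Its groups did not overlap, and neither did those of 1 of 2 further HSP90B1 probe sets that share the symbol MIR3652 (-0.18, adjusted p = 0.0869 in limma). The other of these 2, brighter with means of 12.67 in SH3GL2 and 12.71 in empty vector cells, was at -0.04 with overlapping groups (limma, adjusted p = 0.816). HYOU1, the exchange factor that resets BiP, varied little, with 9.59, 9.61 and 9.59 on the SH3GL2 arrays against 9.71, 9.73 and 9.72 on the empty vector arrays. Its difference of -0.12 did not pass in limma (adjusted p = 0.340), whose standard error also draws on the spread of other probe sets. DNAJC3 and DNAJB9, J-domain partners of BiP, had log2 fold changes of -0.12 and 0.03, and SDF2L1, another BiP cofactor, 0.06. A second DNAJB9 probe set, whose mean lay below the reference percentile, was at -0.27 with overlapping groups (limma, adjusted p = 0.405). The disulfide isomerases PDIA3, PDIA6 and P4HB had -0.04, -0.06 and -0.02, and the lectin chaperones CALR and CANX -0.06 and -0.04. The groups did not overlap at 3 of the 4 PDIA6 probe sets, 1 of 3 CANX probe sets and the 1 DNAJC3 probe set. All were lower in SH3GL2 cells and none passed the test. Over the ER arm 8 of 31 probe sets were lower without overlap, 3 of them of PDIA6, against 8.97% of all probe sets.

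ER-associated degradation returns misfolded proteins to the cytosol. EDEM1, a lectin that selects mannose-trimmed glycoproteins, had a log2 fold change of -0.05, HERPUD1, a scaffold of the degradation complex, -0.06, SEL1L, the partner of the ligase SYVN1, -0.15, and DERL1, a channel component, -0.01. A dim SEL1L probe set was at 0.10, opposite in sign to the other 3. None of these 8 probe sets passed (limma, adjusted p 0.485 to 0.967), and the groups overlapped at every one.

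Among the sensors and transcription factors, CREB3L2 was the member that passed. CREB3L2 (BBF2H7) is an ER membrane factor cut in a way like ATF6 and known in the mouse for genes of the secretory pathway in cartilage. It read 10.54, 10.50 and 10.55 on the SH3GL2 arrays, against 10.74, 10.71 and 10.85 on the empty vector arrays. The groups did not overlap, and CREB3L2 fell by 0.24 (SE 0.06, n = 3 per group; limma, adjusted p = 0.0389). Leaving out any 1 of the 6 arrays ended this call (adjusted p = 0.0712 to 0.151).

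ATF4 mRNA was 13.42, 13.30 and 13.49 on the SH3GL2 arrays, against 13.51, 13.50 and 13.55 on the empty vector arrays. The ranges lay close together without overlapping, and the difference of -0.12 did not pass (limma, adjusted p = 0.259). XBP1 read 10.20, 9.83 and 10.44 in SH3GL2 cells and 10.33, 9.97 and 10.50 in empty vector cells. In both groups replicate 2 was the lowest and replicate 3 the highest, and the spread within a group was larger than the difference of -0.11 (limma, adjusted p = 0.798). ATF6 was 9.04, 9.09 and 9.11 in SH3GL2 cells, against 9.03, 9.06 and 9.05 in empty vector cells (log2 fold change 0.03, limma, adjusted p = 0.873), and its other probe set was at -0.12 (adjusted p = 0.591). EIF2AK3 was 8.84, 8.81 and 8.64 in SH3GL2 cells, against 8.62, 8.82 and 9.0 in empty vector cells (-0.05, limma, adjusted p = 0.872). Both genes overlapped between the groups. ERN1 lay below the reference percentile at 5.14, 5.08 and 5.18 in SH3GL2 cells and 5.41, 5.17 and 5.11 in empty vector cells, so its difference of -0.10 (limma, adjusted p = 0.743) is that of a dim probe set.

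**Figure D2:**
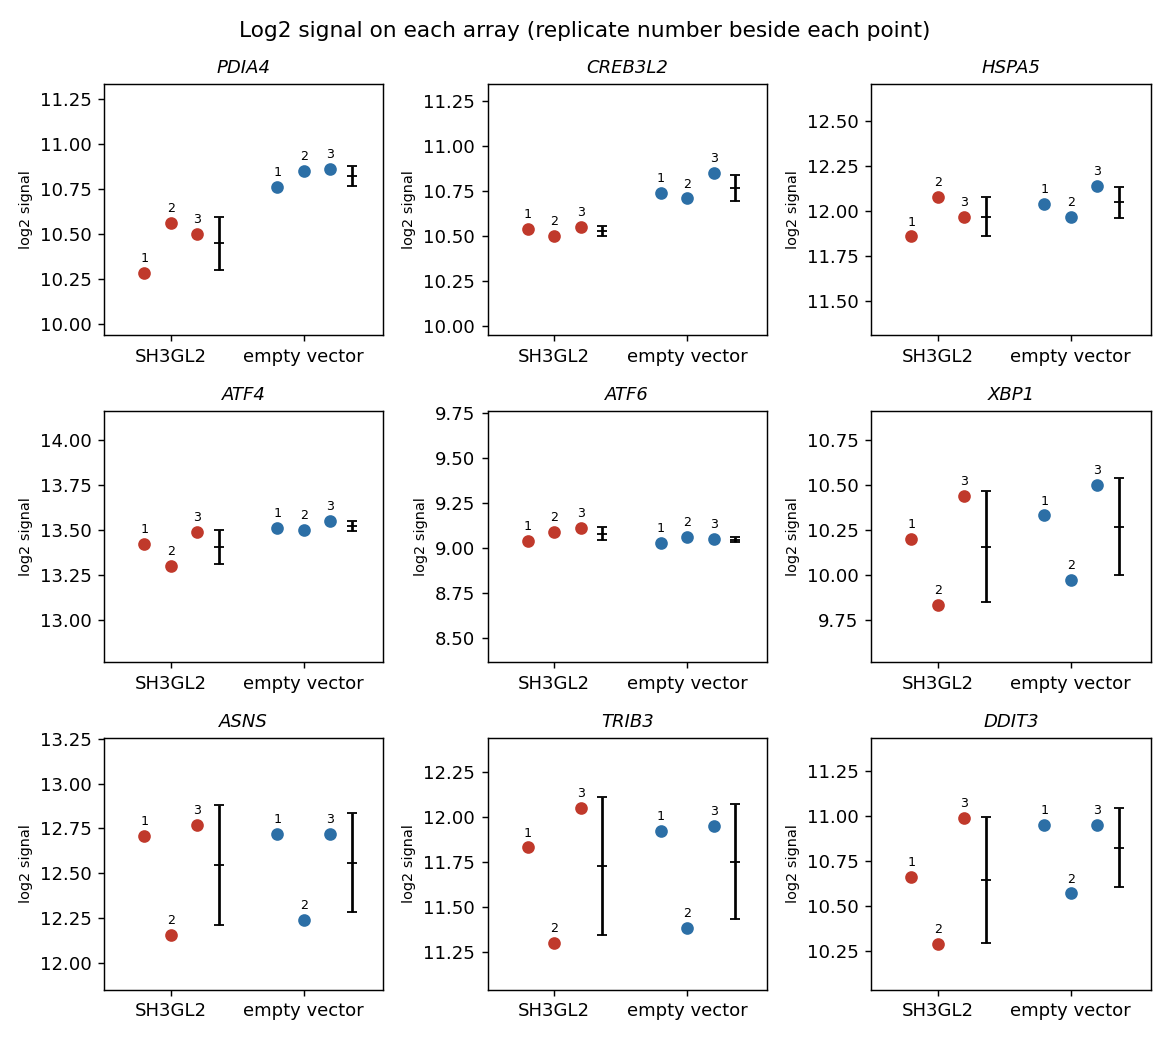
Log2 signal of the brightest probe set of 9 member genes on each array (vertical axes, all of the same span), SH3GL2 in red and empty vector in blue, with the replicate number at each point and mean ± SD (n = 3) as bars. The groups separate at PDIA4 and CREB3L2 and, by a narrow gap, at ATF4. Replicate 2 is the lowest point of both groups for CREB3L2, ATF4, XBP1, ASNS, TRIB3 and DDIT3.

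The promoters of ER arm genes are known for the ER stress response element, to which ATF6 and XBP1 bind together with NF-Y. The letters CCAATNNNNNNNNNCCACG were searched on both strands of RefSeq windows (GRCh38.p14) from 250 bases before to 50 after each gene's start, which were given for 16 of the 18 ER arm genes. They occurred in 4 of the 16 (HSPA5, HSP90B1, CALR and CANX), in XBP1 among the 6 sensors and factors, in 0 of 15 ATF4 arm windows and in 22 of 27305 windows in all, or 0.0806%. HSPA5 and PDIA4 are printed as the standard target and as the ER arm gene of smallest adjusted p, and XBP1 was added after its values were seen. The windows are chr9:125241294-125241593, chr7:149028441-149028740 and chr22:28800520-28800819, all on the minus strand. Capitals mark the fixed letters of the match, which began 66 bases before the start in HSPA5 and 52 before it in XBP1.
HSPA5: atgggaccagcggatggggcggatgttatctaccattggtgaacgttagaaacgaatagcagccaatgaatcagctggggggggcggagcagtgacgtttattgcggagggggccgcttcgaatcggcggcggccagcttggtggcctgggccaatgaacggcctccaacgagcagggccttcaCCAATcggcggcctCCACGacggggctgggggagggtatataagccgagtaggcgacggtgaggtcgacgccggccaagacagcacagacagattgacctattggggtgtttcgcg
PDIA4: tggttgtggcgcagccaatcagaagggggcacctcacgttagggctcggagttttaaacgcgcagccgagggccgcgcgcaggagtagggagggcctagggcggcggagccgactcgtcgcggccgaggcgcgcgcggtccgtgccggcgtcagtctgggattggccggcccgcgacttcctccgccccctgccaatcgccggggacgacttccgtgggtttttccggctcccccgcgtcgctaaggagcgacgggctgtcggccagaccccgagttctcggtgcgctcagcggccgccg
XBP1: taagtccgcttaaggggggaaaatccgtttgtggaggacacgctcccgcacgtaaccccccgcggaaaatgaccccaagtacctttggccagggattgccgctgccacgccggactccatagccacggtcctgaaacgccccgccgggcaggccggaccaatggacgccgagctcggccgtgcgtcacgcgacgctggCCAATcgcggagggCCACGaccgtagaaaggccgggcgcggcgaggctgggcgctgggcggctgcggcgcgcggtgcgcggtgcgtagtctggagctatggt
The PDIA4 window does not hold these letters, while those of HSPA5 and XBP1, genes that did not pass the test between the groups, each hold them once. A match is a description of sequence, not of binding in these cells. Only these exact letters were searched, so a window without them was not shown to lack an ER stress element.

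In the ATF4 arm 0 of 26 probe sets passed in either direction, and 0 passed in any alternative. At an unadjusted p under 0.05 there were 3 (VLDLR, ALDH18A1 and PHGDH), not above the 15.9% of all probe sets. The median log2 fold change was -0.025, and 16 of 26 lay below 0. Asparagine synthetase, ASNS, a standard ATF4 target, read 12.71, 12.16 and 12.77 on the SH3GL2 arrays, against 12.72, 12.24 and 12.72 on the empty vector arrays. Replicates 1 and 3 of both groups were nearly level, replicate 2 was far lower in both, and the groups differed by -0.01 (95% interval -0.33 to 0.31; limma, adjusted p = 0.981). The serine synthesis genes PHGDH, PSAT1 and PSPH had log2 fold changes of -0.23, -0.09 and 0.08, and SHMT2 and MTHFD2, mitochondrial one-carbon enzymes, 0.07 and -0.05. PHGDH, the first enzyme of that pathway, was 9.84, 9.77 and 10.04 in SH3GL2 cells and 10.32, 9.95 and 10.07 in empty vector cells, with overlapping groups (limma, adjusted p = 0.249). ALDH18A1, which starts proline synthesis from glutamate, was the member whose groups were apart upward, at 9.18, 9.34 and 9.18 in SH3GL2 cells against 9.10, 9.03 and 9.01 in empty vector cells. Its difference of 0.19 did not pass (limma, adjusted p = 0.203). Of the amino acid transporters, SLC7A11 imports cystine, SLC7A5 imports large neutral amino acids, SLC3A2 is the heavy chain of both and SLC1A4 carries small neutral amino acids. Their log2 fold changes were 0.04, 0.06, -0.03 and -0.11.

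Stress effectors of the ATF4 arm gave 0 of 7 probe sets past the test. All 7, of 6 genes, had values below 0 (median -0.10), against 46.1% of all probe sets. DDIT3 encodes CHOP, a transcription factor linked to cell death under lasting ER stress. It read 10.66, 10.29 and 10.99 on the SH3GL2 arrays, against 10.95, 10.57 and 10.95 on the empty vector arrays. The ranges overlapped, replicate 2 was again the lowest of each group, and the difference was -0.18 (95% interval -0.49 to 0.14; limma, adjusted p = 0.640). TRIB3, a pseudokinase induced by ATF4 and CHOP, was 11.83, 11.30 and 12.05 in SH3GL2 cells and 11.92, 11.38 and 11.95 in empty vector cells (-0.02, limma, adjusted p = 0.971). CHAC1, which degrades glutathione, was 9.08, 8.84 and 9.35 in SH3GL2 cells and 9.20, 9.07 and 9.12 in empty vector cells (-0.04, limma, adjusted p = 0.912). These 2 genes overlapped as well. PPP1R15A (GADD34), which directs dephosphorylation of eIF2 alpha, had a log2 fold change of -0.11, and CEBPB, a leucine zipper factor, -0.01. VLDLR, a lipoprotein receptor, was the ATF4 arm gene of smallest adjusted p, with 4.18, 4.10 and 4.16 in SH3GL2 cells against 4.42, 4.34 and 4.49 in empty vector cells. Its groups did not overlap (-0.27, limma, adjusted p = 0.134), but every value was below the reference median of 5.195.

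ATF4 binds composite elements of a C/EBP and an ATF site. The letters TGATGNAA, a core of such elements, were found on either strand in 3 of 15 ATF4 arm windows (20%: ASNS, SLC3A2 and CHAC1), in HERPUD1 among 16 ER arm windows and in 3.67% of all 27305 windows. VLDLR is printed as the gene of smallest adjusted p, and ASNS and CHAC1, chosen after their values were seen, as windows with a match. They are chr7:97872359-97872658 on the minus strand for ASNS, chr15:40953221-40953520 on the plus strand for CHAC1 and chr9:2621537-2621836 on the plus strand for VLDLR. Capitals mark the fixed letters of the match, which began 68 bases before the start of ASNS and, on the other strand, 209 before that of CHAC1.
ASNS: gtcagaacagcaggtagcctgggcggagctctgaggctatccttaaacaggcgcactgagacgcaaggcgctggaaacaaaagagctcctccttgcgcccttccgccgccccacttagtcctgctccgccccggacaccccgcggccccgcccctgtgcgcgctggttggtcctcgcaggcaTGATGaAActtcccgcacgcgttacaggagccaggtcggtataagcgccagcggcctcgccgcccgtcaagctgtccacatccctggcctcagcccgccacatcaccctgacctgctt
CHAC1: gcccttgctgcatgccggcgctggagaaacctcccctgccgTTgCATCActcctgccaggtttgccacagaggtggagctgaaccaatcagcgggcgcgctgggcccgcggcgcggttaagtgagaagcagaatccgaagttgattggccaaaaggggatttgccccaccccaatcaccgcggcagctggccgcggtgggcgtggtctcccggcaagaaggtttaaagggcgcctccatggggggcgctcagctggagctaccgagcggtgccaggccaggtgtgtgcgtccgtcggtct
VLDLR: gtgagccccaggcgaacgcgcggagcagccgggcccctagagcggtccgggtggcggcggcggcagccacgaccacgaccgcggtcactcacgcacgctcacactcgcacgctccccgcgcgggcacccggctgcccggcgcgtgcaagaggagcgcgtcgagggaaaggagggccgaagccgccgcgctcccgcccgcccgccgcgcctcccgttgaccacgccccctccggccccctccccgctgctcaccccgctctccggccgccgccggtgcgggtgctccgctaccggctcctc
The VLDLR window held neither motif, and no window printed here held both.

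ATF4 arm genes varied between replicates of the same group. The median SD within groups was 0.180 on the log2 scale in the ATF4 arm, against 0.0827 in the ER arm and 0.105 over all probe sets. The median absolute log2 fold change was similar, at 0.075 in the ATF4 arm, 0.07 in the ER arm and 0.0833 over all probe sets, and below the median SD in each. This spread followed the replicate number. At 20 of 26 ATF4 arm probe sets (76.9%) replicate 2 was the lowest array of both the SH3GL2 and the empty vector group, as it was at 6 of 31 ER arm probe sets (19.4%) and 11.6% of all probe sets. The pattern was noticed after the values were seen, so the shares are a description. By role the count was 14 of 19 for amino acid genes, 6 of 7 for stress effectors, 4 of 7 for sensors and factors, 3 of 8 for ER-associated degradation and 3 of 23 for chaperones.

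**Figure D3:**
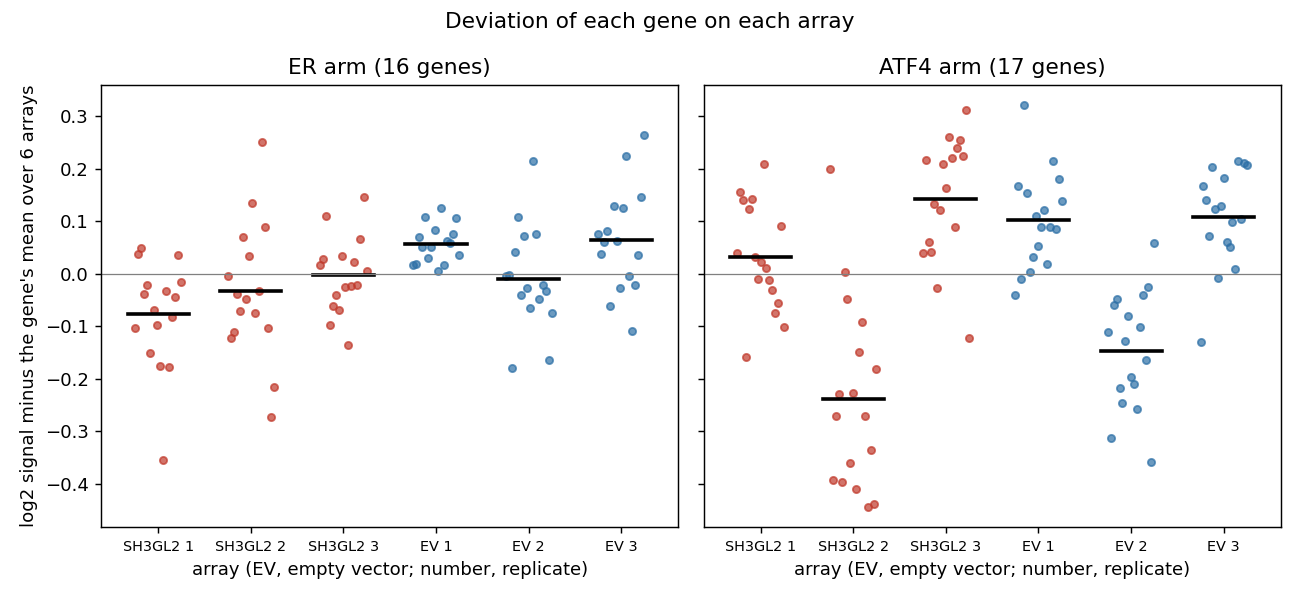
Deviation of each gene's brightest probe set from its mean over the 6 arrays (vertical axis, log2 signal) on each array, for 16 ER arm genes and 17 ATF4 arm genes, SH3GL2 in red and empty vector (EV) in blue. Points are genes and black lines their mean, which in the ATF4 arm was -0.24 on SH3GL2 replicate 2 and -0.15 on empty vector replicate 2 and lay above 0 on the other arrays.

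The mean deviation of the 17 ATF4 arm genes was 0.03, -0.24 and 0.14 on SH3GL2 replicates 1, 2 and 3, and 0.10, -0.15 and 0.11 on the empty vector replicates. That of the 16 ER arm genes was -0.08, -0.03 and -0.0028 on the SH3GL2 arrays and 0.06, -0.0091 and 0.06 on the empty vector arrays. The ATF4 arm thus spanned more across replicates of 1 group than the ER arm did across all 6 arrays. Taking the mean of both arrays numbered 2 minus that of the other 4, TRIB3 was at -0.60, ASNS at -0.53, SLC7A11 at -0.47, and PSAT1 and DDIT3 at -0.46. XBP1 at -0.47, listed with the sensors and transcription factors, and HERPUD1 at -0.33, listed with ER-associated degradation, varied in the same way. So did both probe sets of the chaperone gene DNAJB9 (-0.22 and -0.31) and the brightest of SEL1L (-0.22), while the other SEL1L probe sets did not. HSPA5 was at 0.02 and ATF4 mRNA itself at -0.09. The median of the difference was -0.24 over the ATF4 arm and 0.0025 over both the ER arm and all probe sets. SLC7A11 read 12.35, 11.73 and 12.40 on the SH3GL2 arrays, against 12.23, 11.93 and 12.20 on the empty vector arrays, and its other 2 probe sets also had replicate 2 lowest in both groups. PSAT1 read 9.77, 9.25 and 9.78 on the SH3GL2 arrays, against 9.80, 9.43 and 9.85 on the empty vector arrays. The exceptions within the ATF4 arm were ALDH18A1, both PSPH probe sets, 1 of 3 for SHMT2, 1 of 4 for SLC1A4 and 1 of 2 for PPP1R15A.

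**Figure D4:**
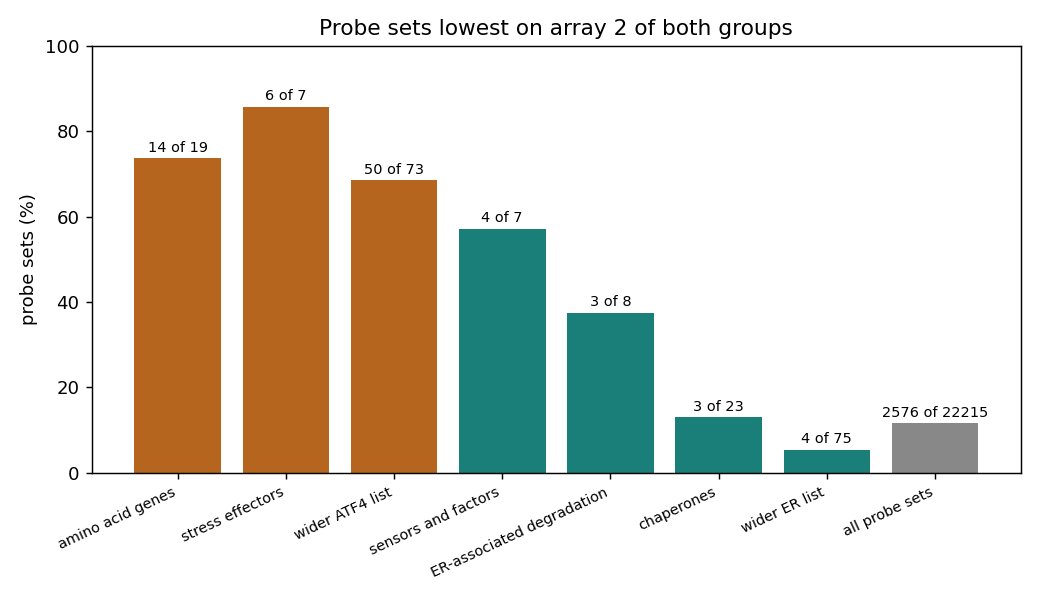
Percent of probe sets (vertical axis, from 0) at which replicate 2 was the lowest array of both the SH3GL2 and the empty vector group, by list, with counts above the bars. The ATF4 lists (brown) lie between 68.5% and 85.7%, the ER lists and the sensors (green) between 5.33% and 57.1%, and all probe sets (grey) at 11.6%.

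The count was 20 of 26 after quantile normalization, 21 of 26 after centring and 19 of 24 among probe sets brighter than the median, where all probe sets gave 12.8%, 11.7% and 13.7%. The array medians of replicate 2 were 7.01 for SH3GL2 and 7.0 for empty vector, inside the range of the others. The labels do not say what the replicate number marks. Without both arrays numbered 2, an alternative chosen after seeing the data, 0 ATF4 arm probe sets passed in either direction, PDIA4 held its call (adjusted p = 0.0184 in limma) and CREB3L2 lost it (adjusted p = 0.109).

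Other genes of these pathways were taken from wider lists that hold no member. Among 75 probe sets of 43 further genes listed for the ER (translocation, glycosylation, folding and transport) 2 rose and 2 fell. 1 of these genes, GRPEL1, acts in mitochondria, and its probe sets at 0.20 and 0.10 did not pass. SERP1, which protects the translocon under stress, rose by 0.25 on 1 of 3 probe sets (limma, adjusted p = 0.0127) and SPCS2, a signal peptidase subunit, by 0.20 on 1 of 2 (adjusted p = 0.0319). CREB3L1 (OASIS), the close relative of CREB3L2, read 8.57, 8.66 and 8.67 on the SH3GL2 arrays, against 9.09, 9.08 and 9.07 on the empty vector arrays. The groups were well apart and CREB3L1 fell by 0.45 on this probe set (limma, adjusted p = 0.00177), while a dimmer one, between 5.79 and 5.97 on all arrays, did not pass (adjusted p = 0.962). TRAM1, a translocon partner, fell by 0.28 on 1 of 3 probe sets (limma, adjusted p = 0.0240). The wider ATF4 list held 73 probe sets of 44 further genes. It includes genes that are not ATF4 targets, such as the eIF2 subunits EIF2S1 and EIF2S2 and the kinases EIF2AK1 and RPS6KA3. BCAT1, a branched chain aminotransferase, rose by 0.43 on 1 of 2 probe sets (limma, adjusted p = 0.00661). SLC38A2, a glutamine and alanine transporter, fell by 0.25 on 1 of 2 (limma, adjusted p = 0.0263). The other probe sets of SERP1, SPCS2, TRAM1, BCAT1 and SLC38A2 had values of the same sign that did not pass. The 6 that passed of 148 went both ways and are near the 4.17% of all probe sets that passed. They were 3 without empty vector replicate 2 or 3 and 1 without SH3GL2 replicate 3. Replicate 2 was the lowest array of both groups at 50 of the 73 wider ATF4 probe sets (68.5%) and at 4 of the 75 wider ER probe sets (5.33%).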

How the data were processed

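RNA of SUM-159 cells stably transfected with SH3GL2 or empty vector (3 arrays each) was measured on Affymetrix U133A 2.0 arrays. The authors scanned them with GCOS software, and MAS5, with no version, is named in the submitters' processing notes. The deposited values are log2 signals to 2 decimals, the log2 scale being read from their upper end (15.31). Whether arrays were scaled to each other is not stated. Groups came from the sample titles. The table held 22277 probe sets, of which 62 controls were dropped and 19064 had 1 symbol.

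Groups were compared with limma 3.58.1 in R 4.3.3 (two-sided, eBayes with the trend option), and p-values were adjusted by Benjamini-Hochberg over the 22215 probe sets, with calls at 0.05. No offset or filter was used. Alternatives were quantile normalization, centring on array medians, 16 added before the logarithm, probe sets above the median signal only, no trend, a robust prior, an analysis of variance, a replicate block, each array left out and a threshold of 0.01. The fits were tested on simulated data. Arrays have no sequencing depth, and their number limits precision.

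Members and lists were chosen with earlier results of these data known. All members are named, with values per array for those past the threshold and for HSPA5, XBP1, ATF6, ATF4, EIF2AK3, ERN1 and DDIT3. Others given per array were chosen after their values were seen, and of the wider lists up to 6 genes under the threshold are named. Sequences are RefSeq's, and PDIA3, DERL1, PSPH, SHMT2 and SLC7A11 had no window.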

Additional observations from a re-analysis of the deposited data

How the results depend on the processing

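The counts of 0 higher member probe sets and 0 ATF4 arm probe sets in either direction were the same in every alternative. The 2 lower member probe sets were 1 after centring, 0 without an intensity trend, 1 in the analysis of variance, 1 without both arrays numbered 2, 0 at an adjusted p under 0.01, and 0 to 1 when 1 array was left out. The 1 lower ER arm probe set was 0 without the trend and at 0.01, and 0 to 1 when 1 array was left out. PDIA4 lost its call without the trend (limma, adjusted p = 0.0597), and CREB3L2 after centring (adjusted p = 0.0526) and without the trend (adjusted p = 0.137). Both lost it in the analysis of variance (adjusted p = 0.246 and 0.184), where 33 probe sets in all were higher and 44 lower, and where HYOU1 passed (adjusted p = 0.0487). The 6 wider pathway probe sets that passed were 10 among probe sets brighter than the median, 2 without the trend, 1 in the analysis of variance, 2 without both arrays numbered 2, 2 at 0.01, and 1 to 7 when 1 array was left out (1 without SH3GL2 replicate 3). No named fold change turned its direction where it was called. Residuals of arrays numbered 1, 2 and 3 correlated between the groups at -0.01, 0.13 and 0.15, and those of other pairs at -0.16 to 0.02. The labels do not say that the numbers pair the samples, and the main fit did not pair them. A shift shared by arrays of 1 number, as at ATF4 arm genes, therefore counts as spread within groups in the intervals of that fit. With the replicate number as a replicate block the member count stayed at 2 lower and 0 higher, the ATF4 arm count at 0, and the wider count was 13 (4 higher and 9 lower). Dim signal limits 6 of the 64 member probe sets, ERN1 and VLDLR among them.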

Other observations

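All 6857 genes with a single-symbol probe set above the reference percentile were ranked by the mean of both arrays numbered 2 minus that of the other 4 arrays, taking each gene's most negative probe set, an ordering chosen after seeing the data. INHBE, an activin subunit gene outside all lists used here, came first, with 8.88, 8.11 and 9.18 on the SH3GL2 arrays and 9.16, 8.32 and 9.18 on the empty vector arrays (a difference of -0.885). Both arrays numbered 2 lay well below the other 4. The first 10 genes held 2 members (TRIB3 and ASNS) and 4 genes of the wider ATF4 list (CTH, GDF15, VEGFA and PCK2), and the first 30 held 7 members and 8 wider ATF4 genes, while 37 members and 41 wider ATF4 genes were ranked. CTH, which makes cysteine from cystathionine, read 10.47, 9.77 and 10.64 on the SH3GL2 arrays and 10.72, 10.30 and 10.98 on the empty vector arrays. GDF15, a stress-induced cytokine, read 8.70, 8.21 and 9.06 on the SH3GL2 arrays and 8.59, 8.02 and 8.71 on the empty vector arrays. Genes outside the lists also stood among the first 10, including BAMBI, CALCB and ECM2. Since the arrays of replicate 2 carry no label beyond the number, what they share was not tested.

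Among the 39 wider ATF4 genes with a promoter window, 13 (33.3%) held the letters TGATGNAA, against 1 of 44 wider ER genes (2.27%) and 3.67% of all windows.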
